A study of Rattus norvegicus with 12 samples.

Results

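Adiponectin (Adipoq), adipsin (Cfd), the perilipins Plin1 and Plin2, resistin (Retn), hormone-sensitive lipase (Lipe), the transcription factor C/EBPalpha (Cebpa) and leptin (Lep) were followed in rat kidney as markers of white fat cells and of lipid droplets. Which kind of fat cell, white or brown, gave their signal was not tested. The members were the probe sets that the array annotation assigned to these 8 symbols alone. Of the 8 genes, 7 had at least 1 probe set among the 14217 genes named by a single symbol on the array, and Retn was not analysed here. The 7 genes had 14 probe sets, and 11 of them, from 6 genes, were bright enough to be tested.

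White fat cells store triglyceride in a large lipid droplet coated by Plin1, which controls the access of lipases such as Lipe. They secrete hormones known as adipokines, among them adiponectin, adipsin and leptin, and C/EBPalpha together with the nuclear receptor PPARgamma switches on their genes. In and around the kidney, fat cells lie in the renal sinus and outside the capsule. Plin2 also coats small lipid droplets in many other cell types, and Cebpa is also used outside fat.

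Whole kidney RNA came from 12 male Zucker rats, measured on Affymetrix rat genome arrays with 1 array per rat and 3 rats in each of 4 groups. The groups were obese rats given rosiglitazone, obese rats on control diet, lean rats given rosiglitazone and lean rats on control diet. Rosiglitazone, a drug that activates PPARgamma, was mixed into ground chow at 3 mg/kg body weight for 12 weeks, and the control diet was the same chow without it. In obese Zucker rats the leptin receptor is mutated; the labels present the animals as a diabetes model. No source used here states the genotype of the lean rats, the ages, or whether fat around the kidney was trimmed off. The study was set up to learn how the drug changes gene expression in the kidneys of both body types.

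Values are MAS5 signals, a linear brightness for each probe set, and changes are differences in log2 of the signal plus 16 with their standard error (SE). A change was called when its p-value, adjusted by the Benjamini-Hochberg method over all 18625 tested probe sets with limma, lay under 0.05. As a guide to background, a signal at or under 123.7, the highest of any of the 27 bacterial control probe sets on any array, is described as at background. The median of these control signals was 10.3, so the ceiling is high, and a signal at background may still be present. This ceiling was chosen after the data were seen. Median signals per array lay between 204 and 238.6, so the arrays were of similar brightness, and their number limits the precision. Lean rosiglitazone array 3 had the lowest correlation with its own group, 0.953, against 0.960 to 0.977 for the others. A hybridization spike-in (cre) was brighter on 5 arrays (19916 to 21951) than on the other 7 (14412 to 16658), and all 3 obese rosiglitazone arrays were in the lower class. The brighter arrays were lean control 1 and 2, lean rosiglitazone 1 and 2 and obese control 1. The class thus went partly with body type, so the comparisons of obese and lean rats are partly confounded with it.

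Of the 6 proximal tubule markers, 5 were above background on every array, and Slc5a2 was at background on some lean arrays. The summed signal of the 6 was 35282 to 36855 in obese rosiglitazone, 37105 to 42091 in obese control, 46302 to 50701 in lean rosiglitazone and 45396 to 54179.8 in lean control kidneys. Of the 10 white fat cell markers, 9 were on the array and 7 were above background on all arrays. Without Pck1, which kidney tubules also express, the white fat sum was 5927 to 7613 in obese rosiglitazone, 3148 to 3667 in obese control, 9132 to 13089.6 in lean rosiglitazone and 4393 to 6842 in lean control kidneys. Fabp4 made up much of this sum in the drug groups, with a mean of 3249.7 in obese rosiglitazone and 5154 in lean rosiglitazone rats. It was 403.2 in obese control and 1514 in lean control rats. Cidec, at means of 1454, 1246, 1727 and 1679.9 in the order of the sums, also contributed. The array thus read genes of this list in all 4 groups, but the sums do not measure fat cell content. Brown fat markers were read too, although not all of them in every group. Their sum was 2483 to 2914 in obese rosiglitazone, 2190.1 to 2308 in obese control, 6134 to 12573 in lean rosiglitazone and 3305 to 4213 in lean control kidneys, with Dio2 and Elovl3 at background. Without Ppargc1a, the brightest of them and level across the groups, the sum was 886.7 to 1331 in obese rosiglitazone, 711.8 to 801.6 in obese control, 4376 to 11002 in lean rosiglitazone and 1612 to 2659 in lean control kidneys. Over both diets Ucp1, Cidea and Cox8b were called lower in obese rats, but Cox7a1 was not (limma, log2 change 0.21, SE 0.14, adjusted p = 0.356). Zic1, below the brightness filter, had means of 122.3 in obese rosiglitazone, 90.2 in obese control, 58.6 in lean rosiglitazone and 149.4 in lean control rats. In obese control rats Ucp1 and Cox8b were at background, with means of 14.6 and 29.3.

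Cfd, Plin1 and Adipoq were the members called lower in obese rats over both diets, and their promoters are shown for that reason. Each runs from 250 bases before to 50 bases after the start given for the promoter, 5′ to 3′ on the gene's strand, taken from RefSeq on the rat assembly GRCr8. The Cfd promoter is chr7:10465447-10465746, that of Plin1 is chr1:143086099-143086398 and that of Adipoq is chr11:91240120-91240419, all on the minus strand. For Cfd the start given for the promoter matches that of the annotated gene. For Plin1 and Adipoq it lies inside the annotated gene, which begins upstream of it, at 143086199 and 91240244. Capitals mark the motifs found in a search of both strands.
Cfd: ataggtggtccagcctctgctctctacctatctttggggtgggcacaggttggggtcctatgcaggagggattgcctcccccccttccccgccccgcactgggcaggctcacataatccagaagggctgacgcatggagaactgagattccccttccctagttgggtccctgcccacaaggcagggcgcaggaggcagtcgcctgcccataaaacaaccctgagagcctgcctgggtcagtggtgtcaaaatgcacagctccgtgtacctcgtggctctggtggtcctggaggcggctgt
Plin1: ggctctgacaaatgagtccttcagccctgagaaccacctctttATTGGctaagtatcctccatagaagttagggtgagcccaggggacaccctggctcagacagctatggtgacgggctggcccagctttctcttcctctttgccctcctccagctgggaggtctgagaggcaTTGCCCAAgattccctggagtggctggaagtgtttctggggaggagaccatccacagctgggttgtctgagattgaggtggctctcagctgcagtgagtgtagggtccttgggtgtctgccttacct
Adipoq: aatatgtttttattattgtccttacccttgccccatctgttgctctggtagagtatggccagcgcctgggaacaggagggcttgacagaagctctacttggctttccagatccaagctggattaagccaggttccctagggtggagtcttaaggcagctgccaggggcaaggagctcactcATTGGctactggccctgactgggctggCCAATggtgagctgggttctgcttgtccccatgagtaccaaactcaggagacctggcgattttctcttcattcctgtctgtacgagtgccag

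The search covered AGGTCA, the core element of nuclear receptor sites, its direct repeat AGGTCANAGGTCA, which PPARgamma binds with RXR, the C/EBP motif TTGCNNAA, the CCAAT box (CCAAT) and the TATA box (TATAAA). The Plin1 window held TTGCNNAA from position -77 and a reversed CCAAT from -207, where the base before the start given for the promoter is -1. The Adipoq window held CCAAT from -42 and a reversed copy from -69, both inside the annotated gene. The Cfd window held none of these letters. AGGTCA, of which 2 copies form the direct repeat, was in 16.2% of 33469 promoters of this length, the direct repeat in 0.0538%, TTGCNNAA in 10.6%, CCAAT in 37.5% and TATAAA in 14.2%. Neither AGGTCA nor its repeat was in the 3 windows shown. A promoter entry was found for 7 of the 8 members, and Lipe had none.

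Cfd, which encodes a serine protease of the alternative complement pathway secreted by fat cells, showed the widest gap between the body types among the tested members. Its signals were 93.4, 85.6 and 127.7 in obese rosiglitazone rats and 48.6, 62.1 and 108.5 in obese control rats. In lean rats they were 427.1, 483.7 and 401.2 with rosiglitazone and 295.4, 176 and 499.9 on control diet. Every obese array lay below every lean array, and 5 of the 6 obese arrays were at background. The obese and lean means were 73.1 ± 31.4 and 323.8 ± 163.8 on control diet, and 102.2 ± 22.4 and 437.3 ± 42.2 on rosiglitazone (SD, n = 3 each). The order of the group means was thus lean rosiglitazone, lean control, obese rosiglitazone and obese control. Within each body type the drug and control arrays overlapped.

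On control diet Cfd was lower in obese rats by limma (log2 change -1.87, SE 0.32, adjusted p = 0.00508). As all 3 obese control arrays were at background, the fold is a bound, at least 2.25-fold lower. The fitted change on rosiglitazone was -1.95 (SE 0.32, adjusted p = 0.00375), with 2 of the 3 obese arrays at background, and over both diets it was -1.91 (SE 0.23, adjusted p = 0.000118), with 5 of 6. With signals at background raised to the ceiling, a bound added after the data were seen, these differences were at least 3.21-fold and 2.68-fold. Within the higher spike-in class, with 1 obese and 2 lean control arrays, the control diet change was -1.92 and missed the threshold (adjusted p = 0.108). In bulk tissue, fewer cells of a type and less RNA per cell cannot be told apart.

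**Figure D1:**
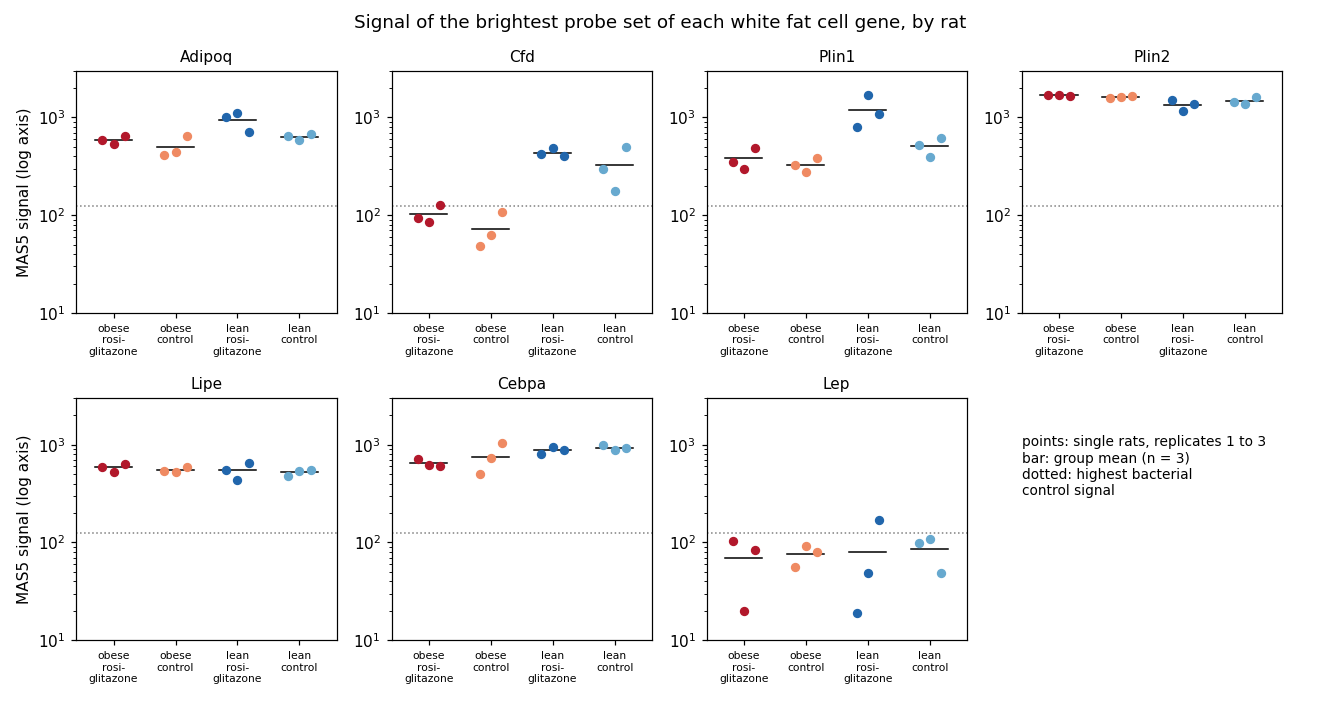
MAS5 signal (log axis) of the probe set of highest mean of each gene in the 12 rats, by group, with obese rosiglitazone at the left and lean control at the right of each panel. Points are single rats, bars are means of 3 and the dotted line is the highest bacterial control signal, 123.7; Cfd lies below or near that line in obese rats and above it in all lean rats, while Lipe stays between 437.8 and 653.6 in all groups.

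Plin1, the coat protein of the fat cell's lipid droplet, was higher in lean kidneys, above all in those given rosiglitazone. Its brighter probe set (1392583_at) gave 352.5, 299.9 and 491.6 in obese rosiglitazone rats and 324.1, 278.4 and 381.3 in obese control rats. In lean rats it gave 799.3, 1696 and 1095 with rosiglitazone and 527.6, 391.8 and 618.6 on control diet. Lean rosiglitazone arrays were above all 9 others, and all obese arrays were below the lean arrays of the same diet. The group means were 381.3 ± 99.1 in obese rosiglitazone, 327.9 ± 51.6 in obese control, 1197 ± 457.2 in lean rosiglitazone and 512.7 ± 114.1 in lean control rats (SD, n = 3 each).

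On rosiglitazone Plin1 was 2.97-fold lower in obese rats (limma, log2 change -1.57, SE 0.25, adjusted p = 0.00367). On control diet the difference was -0.61 (SE 0.25) and did not pass (adjusted p = 0.210), although the arrays did not overlap. Over both diets it was -1.09 (SE 0.18, adjusted p = 0.00142).

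The dimmer Plin1 probe set (1369449_at) did not show the gap. It gave 96.1, 95.1 and 196.1 in obese rosiglitazone, 142.2, 174.9 and 161.8 in obese control, 166.5, 220.1 and 197.6 in lean rosiglitazone and 215.5, 85.6 and 197.1 in lean control rats. Of its 12 values, 9 were above the bacterial ceiling, and the body types overlapped. Its change over both diets was -0.28 (95% interval -0.77 to 0.20, adjusted p = 0.450), so the probe sets of Plin1 disagree on the size of the difference.

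**Figure D2:**
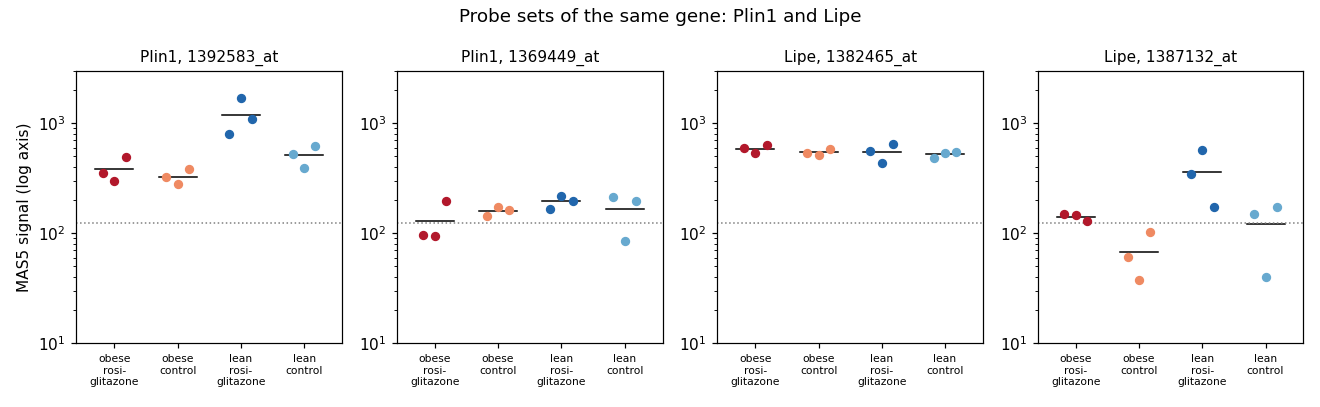
MAS5 signal (log axis) of the probe sets of Plin1 and Lipe in the 12 rats, by group, with obese rosiglitazone at the left and lean control at the right of each panel; points are single rats, bars are means of 3 and the dotted line is the highest bacterial control signal. In Plin1 1392583_at the lean rosiglitazone rats lie at 799.3 to 1696, whereas in 1369449_at the groups overlap; in Lipe 1382465_at the groups overlap as well, whereas in 1387132_at the lean rosiglitazone rats reach 570.3.

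Adipoq encodes adiponectin, a fat cell hormone that raises insulin sensitivity. Its signals were 583.1, 535.9 and 639.5 in obese rosiglitazone rats and 409.8, 447.7 and 643.5 in obese control rats. Lean rats had 1021, 1110.5 and 710.5 with rosiglitazone and 644.9, 588.6 and 670.2 on control diet. On rosiglitazone all obese arrays were below all lean arrays, while on control diet obese array 3 lay within the lean range. Group means were 586.2 ± 51.9 in obese rosiglitazone, 500.4 ± 125.4 in obese control, 947.5 ± 210.0 in lean rosiglitazone and 634.6 ± 41.8 in lean control rats (SD, n = 3 each).

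By limma, Adipoq was lower in obese rats over both diets (log2 change -0.51, SE 0.13, adjusted p = 0.0164). Within a diet no difference passed: it was -0.36 (SE 0.18, adjusted p = 0.306) on control diet and -0.66 (SE 0.18, adjusted p = 0.0511) on rosiglitazone. The call over both diets was lost when the spike-in class entered the model (-0.49, adjusted p = 0.0557) and within the lower class (-0.29, adjusted p = 0.323). Within that class the difference on rosiglitazone was -0.27 (adjusted p = 0.524). The difference on rosiglitazone passed without lean rosiglitazone array 3 (-0.85, adjusted p = 0.0146), without obese control array 1 (-0.66, adjusted p = 0.0483) and without obese control array 3 (-0.66, adjusted p = 0.0347). Lean rosiglitazone array 3 held the lowest value of its group, so leaving it out widened the gap. The obese control arrays do not enter this difference, which stayed at -0.66. These calls are thus no separate support.

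Plin2, the droplet coat protein found in many cell types, differed in the other direction and by little. Its brighter probe set (1390383_at) gave 1702, 1687 and 1657 in obese rosiglitazone and 1567, 1614 and 1658 in obese control rats. Lean rats gave 1492, 1166 and 1361 with rosiglitazone and 1443, 1359.8 and 1619 on control diet. Obese arrays were above all lean arrays on rosiglitazone, and the body types overlapped on control diet.

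Over both diets Plin2 was 1.17-fold higher in obese rats (limma, log2 change 0.23, SE 0.07, adjusted p = 0.0451). That call stood in 5 of 21 alternative settings. Within a diet the change was 0.13 (SE 0.10, adjusted p = 0.535) on control diet and 0.33 (SE 0.10, adjusted p = 0.0779) on rosiglitazone. The dimmer Plin2 probe set (1382680_at) ranged from 101.5 to 266.7 over the 12 arrays with a change of 0.39 over both diets (SE 0.20, adjusted p = 0.223).

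Lipe, the lipase that hydrolyses stored fat in the fasting state, was level in its brighter probe set. That probe set (1382465_at) gave 595.7, 531.7 and 631.6 in obese rosiglitazone, 538.7, 519.7 and 585.7 in obese control, 554.6, 437.8 and 653.6 in lean rosiglitazone and 483.9, 539.3 and 546.4 in lean control rats. Its obese minus lean change over both diets was 0.09, with a 95% interval of -0.13 to 0.30 (adjusted p = 0.630). The groups overlapped throughout.

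The other Lipe probe set (1387132_at) lay below the brightness filter. It gave 150.5, 147.3 and 128.2 in obese rosiglitazone, 61.2, 37.9 and 102.5 in obese control, 343.7, 570.3 and 173.8 in lean rosiglitazone and 151.1, 39.8 and 173.7 in lean control rats. All obese control arrays were at background and all lean rosiglitazone arrays above it. In a fit without the filter its change over both diets was -0.87 (SE 0.33, adjusted p = 0.138), so the probe sets of Lipe differ in pattern. Without lean control array 2, where it passed the filter, the change was -1.14 and was called (limma, adjusted p = 0.0165). That array held the lowest lean value, 39.8, so leaving it out raised both the mean and the gap, and the call is no separate support. Without obese control array 2, where it also passed the filter, the change was -0.73 and was not called (adjusted p = 0.221).

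Cebpa, a factor that starts and maintains the fat cell program and is also active in liver, had 5 probe sets. The 4 tested ones were above background on all 12 arrays. The one of highest mean (1384127_at) gave 719.1, 621 and 606.5 in obese rosiglitazone, 504.4, 728.5 and 1035 in obese control, 801.8, 941.8 and 887.5 in lean rosiglitazone and 1003, 875.4 and 924.1 in lean control rats. On rosiglitazone its obese arrays were all below the lean ones, and on control diet obese array 3 was above all lean arrays.

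The obese minus lean change of this Cebpa probe set over both diets was -0.39 (SE 0.13) and did not pass (adjusted p = 0.0671). It passed without obese control array 3 (-0.52, adjusted p = 0.00795) and when the spike-in class entered the model (-0.52, adjusted p = 0.0376). Obese control array 3 held the highest value of this probe set, 1035, so leaving it out widened the gap, and that call is no separate support. The other 3 tested Cebpa probe sets had changes of 0.13, 0.00 and 0.09 over both diets, with adjusted p-values of 0.404, 0.995 and 0.647. The fifth (1369658_at), below the filter, was at background on all arrays, with values from 14.2 to 60.7.

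Lep, the satiety hormone of fat cells, was at background, as defined here, in most of these kidneys. It gave 103.2, 19.7 and 84.3 in obese rosiglitazone, 55.6, 92.1 and 79.6 in obese control, 19.2, 48.6 and 171.1 in lean rosiglitazone and 99.4, 108.5 and 48.2 in lean control rats. Of the 12 arrays, 11 were at background, and the exception was lean rosiglitazone array 3. No fold change is given for it.

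Counted over the 11 tested probe sets, 1 was called in obese against lean rats on control diet (Cfd), where 4.74% of all tested probe sets were called, 2.58% lower and 2.15% higher. On rosiglitazone 2 were called (Cfd and Plin1, both lower), against 5.00% of all probe sets, 2.60% lower and 2.41% higher. Over both diets 4 were called, 3 lower (Cfd, Plin1 and Adipoq) and 1 higher (Plin2), against 14.3%, 6.62% lower and 7.69% higher. The obese and lean arrays did not overlap for 3 of the 11 on control diet (25.5% of all probe sets), for 5 on rosiglitazone (23.3%) and, within each diet at once, for 2 over both diets (9.95%).

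As a set the 11 probe sets did not shift one way. Their median change over both diets was 0.00, with 5 estimates above 0, 5 below and 1 that rounds to 0.00, and the median of all tested probe sets was 0.03. With only the probe set of highest mean for each of the 6 genes, the median was -0.45. The plot of changes shows the low values in Cfd, Plin1 and Adipoq and the values near 0 in Lipe and 3 of the Cebpa probe sets.

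**Figure D3:**
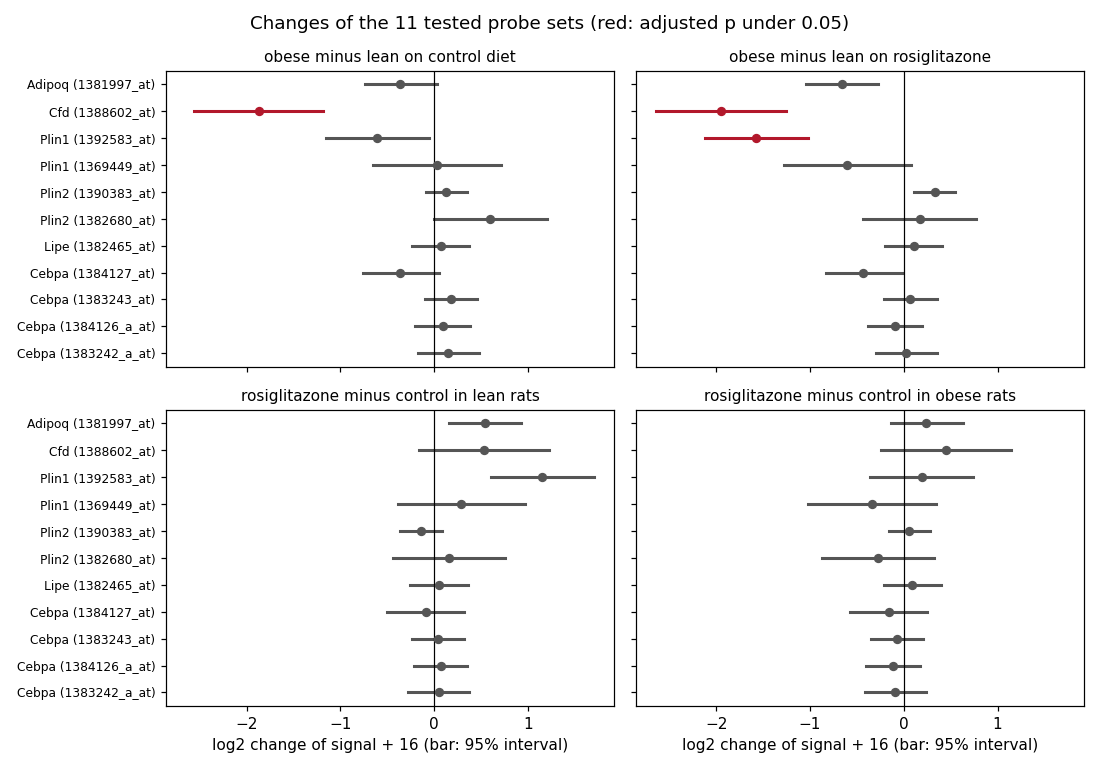
Log2 change of signal + 16 (horizontal axis) of the 11 tested probe sets, named at the left, in 4 comparisons, obese minus lean above and rosiglitazone minus control below. Points are limma estimates and bars 95% intervals; red marks an adjusted p under 0.05, seen for Cfd on control diet (-1.87) and for Cfd (-1.95) and Plin1 (-1.57) on rosiglitazone, and for no probe set in the comparisons of drug and control.

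Rosiglitazone was then compared with control diet within each body type. In lean rats 0 of the 11 probe sets were called by limma, against 0.00537% of all tested probe sets, and 2 had an unadjusted p under 0.05, against 4.79%. Plin1 was 1197 ± 457.2 in lean rosiglitazone rats and 512.7 ± 114.1 in lean control rats (SD, n = 3 each), a log2 change of 1.15 (SE 0.25, 95% interval 0.61 to 1.70, adjusted p = 0.356). Adipoq changed by 0.54 (SE 0.18, 95% interval 0.16 to 0.93, adjusted p = 0.981). For these 2 the drug and control arrays did not overlap, as for 8.54% of all tested probe sets. The dimmer Plin1 probe set (1369449_at) changed by 0.29 (95% interval -0.39 to 0.97, limma adjusted p = 0.989), with overlapping arrays.

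Cfd had a lean drug change of 0.53 (95% interval -0.16 to 1.22, adjusted p = 0.981), with overlapping arrays. The change of Lipe 1387132_at, from the fit without the filter, was 1.50 (SE 0.47, adjusted p = 0.785), and lean rosiglitazone array 3 (173.8) was almost level with lean control array 3 (173.7). The changes of Plin2, Lipe 1382465_at and Cebpa 1384127_at, at -0.14, 0.05 and -0.09, were near 0.

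In obese rats 0 of the 11 probe sets were called by limma, against 0.0698% of all tested probe sets, and 0 had an unadjusted p under 0.05, against 4.92%. Plin1 changed by 0.19 (95% interval -0.36 to 0.74), Adipoq by 0.24 (95% interval -0.14 to 0.63) and Cfd by 0.45 (95% interval -0.24 to 1.14). The dimmer Plin1 probe set (1369449_at) changed by -0.34 (95% interval -1.02 to 0.34). The drug and control arrays overlapped for all 11 probe sets, and 11.9% of all tested probe sets did not overlap. Lipe 1387132_at, outside these 11, did not overlap: its change was 1.00 (SE 0.47, adjusted p = 1 in the fit without the filter), and as all obese control arrays were at background the fold is at least 1.13.

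Over both body types the drug comparison called 0 of the 11 by limma, against 0.0591% of all tested probe sets, with 2 at an unadjusted p under 0.05, against 5.08%. Plin1 had 0.67 in its brighter probe set (SE 0.18, adjusted p = 0.507) and Adipoq 0.39 (SE 0.13, adjusted p = 0.662). The dimmer Plin1 probe set (1369449_at) had -0.02 (SE 0.22, limma adjusted p = 0.999), so the Plin1 probe sets differ here too. Lipe 1387132_at had 1.25 in the fit without the filter (SE 0.33, adjusted p = 0.663). The difference in drug effect between obese and lean rats called 0 of the 11 and 0% of all tested probe sets by limma, with 1 of the 11 at an unadjusted p under 0.05, against 4.31%. That 1 was the brighter Plin1 probe set, with -0.96 (SE 0.36, 95% interval -1.74 to -0.19, adjusted p = 0.992), so a larger drug effect in lean than in obese rats was not established for it. The dimmer one had -0.63 (SE 0.45).

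The members followed each other to different degrees. Over the 12 arrays, log2 signals correlated at r = 0.84 between Adipoq and Cfd, 0.87 between Adipoq and Plin1 and 0.86 between Cfd and Plin1. After the group means were removed these became 0.65, 0.47 and 0.65, on 8 residual degrees of freedom. Rats of a group did not always keep the same order. Lean rosiglitazone array 1 was the lowest of its group for Plin1 (799.3) but not for Adipoq (1021). Plin2 ran against Plin1 (r = -0.78, and -0.35 within groups), and Lipe 1382465_at against Plin1 gave -0.19. These values describe 12 arrays that share group differences and scaling.

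Genes with the most similar pattern to each member over the 12 arrays were picked by Pearson's r. Those nearest to Plin1 were Cidea (0.96), a lipid droplet protein of brown and white fat, Cox8b (0.93), a respiratory subunit of brown fat and muscle, and Kdelr2 (0.92). Cox8b (0.95), Aldh1b1 (0.94) and Slc31a1 (0.93) were nearest to Cfd. Zfp275 (0.87), Cidea (0.87) and Lgals1 (0.86) were nearest to Adipoq.

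Other members had different neighbours. Plin2 lay nearest to Ipo11 (0.96), Cnnm3 (0.95) and Filip1l (0.94), and Lipe to Phc3 (0.86), Hectd3 (0.86) and Inpp5a (0.85). Within groups the nearest gene was Lig4 for Plin1 (0.96), Pls3 for Cfd (0.93), Tpm2 for Adipoq (0.94), Scaf11 for Plin2 (0.96) and Sgsm1 for Lipe (0.94). The nearest genes within groups were thus not those of the whole pattern, but each is the highest picked from all tested genes. Within groups, r with Cidea was 0.76 for Plin1, 0.41 for Cfd and 0.39 for Adipoq. With Ucp1 it was 0.56, 0.13 and 0.24 in the same order. Neighbours of Lep are not given because it was at background.

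Other fat cell and lipid droplet genes, 28 in a list, were read beside the members, and 26 of them were tested. Obese against lean on control diet, 2 rose (Lpl and Hilpda) and 5 fell (Fabp4, Mgll, Aqp7, Gpd1 and Mrap), where 4.74% of all probe sets were called, with a median change of -0.31 against 0.03 for all probe sets. Of the 22 alternatives, 6 kept the call for Mgll, 9 that for Hilpda, 13 that for Lpl and 14 that for Gpd1. On rosiglitazone 2 rose (Nnat and Lpl) and 5 fell (Cidea, Aqp7, Car3, Gpd1 and Mrap), against 5.00% of all probe sets, with a median of -0.22. Of 21 alternatives, 9 kept the call for Lpl and 13 that for Gpd1. Over both diets 4 rose and 9 fell, against 14.3%, with a median of -0.25. Mrap, an accessory protein of the melanocortin receptors, was 388.7 ± 25.7 in obese and 811.1 ± 202.3 in lean rosiglitazone rats, and 342.2 ± 37.1 in obese and 898.1 ± 179.3 in lean control rats (SD, n = 3 each). Its change over both diets was -1.17 (limma, SE 0.13, adjusted p = 5.1e-05). That call stood in all 21 alternatives, and the calls for G0s2 and Plin4 over both diets in 9 and 12 of 21.

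Lpl, the lipase that releases fatty acids from circulating lipoproteins, went the other way. It was 4291 ± 392.4 in obese and 2681 ± 813.1 in lean rosiglitazone rats, and 3391 ± 513.2 in obese and 2005 ± 328.3 in lean control rats (SD, n = 3 each). The change over both diets was 0.73 (limma, SE 0.13, adjusted p = 0.00248). Aqp7, the glycerol channel of fat cells and of proximal tubules, was 2705 ± 362 in obese and 4493 ± 480.1 in lean rosiglitazone rats, with a change over both diets of -0.67 (SE 0.08, adjusted p = 0.000112).

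Among these genes rosiglitazone moved Fabp4, which binds fatty acids in fat cells and is a textbook target of PPARgamma. Its signals were 4111, 2862 and 2776 in obese rosiglitazone rats, 216.2, 501.9 and 491.6 in obese control rats, 4343, 7256 and 3864 in lean rosiglitazone rats and 1068, 1065 and 2408 in lean control rats. All drug arrays were above all control arrays, in both body types. In obese rats the drug change was 3.03 (limma, SE 0.37, adjusted p = 0.0185), and over both body types it was 2.42 (SE 0.26, adjusted p = 0.00324). In lean rats it was 1.81 (SE 0.37) and did not pass (adjusted p = 0.293).

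In obese rats Fabp4 was called in 16 of 21 alternatives. It was lost without any of the 3 obese control arrays (adjusted p = 0.0548, 0.0502 and 0.0522 without arrays 1, 2 and 3), without obese rosiglitazone array 1 (0.107) or without obese rosiglitazone array 3 (0.0848). Cd36, a fatty acid transporter, was also higher with the drug over both body types (1.20, SE 0.15, adjusted p = 0.00518). Of the 26 genes, 0 were called for the drug in lean rats and 1 in obese rats. With the body types combined, 2 were called.

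In the plot of signals by rat, Fabp4 was high in all drug arrays, while Cfd was higher in all lean than in all obese arrays and Plin1 and Adipoq were highest in lean rosiglitazone arrays. Ucp1, the uncoupling protein of brown fat, gave 79.1, 132.2 and 219.8 in obese rosiglitazone, 32.8, 6.87 and 4.11 in obese control, 2357, 5435 and 1535 in lean rosiglitazone and 803.4, 631.9 and 894 in lean control rats. Cidea gave 327.7, 464.2 and 480.1 in obese rosiglitazone, 331.8, 256.2 and 272.2 in obese control, 1345, 3069.9 and 1291 in lean rosiglitazone and 679.5, 459.7 and 764.4 in lean control rats. Cox8b, at background in all 6 obese rats, gave 1028, 2179 and 1079.6 in lean rosiglitazone and 386.9, 168.6 and 592.6 in lean control rats. Lean rosiglitazone array 2 was the highest of all 12 for Plin1, Adipoq, Lipe 1387132_at, Ucp1, Cidea, Cox8b, Fabp4, Plin4 and Car3. It was not the highest for Cfd, Cidec, Lpl, Aqp7 or Mrap. Whether the signal of Cfd, Plin1 and Adipoq came from white or brown fat cells was not tested. The part of the brown fat content in their difference was not tested either.

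**Figure D4:**
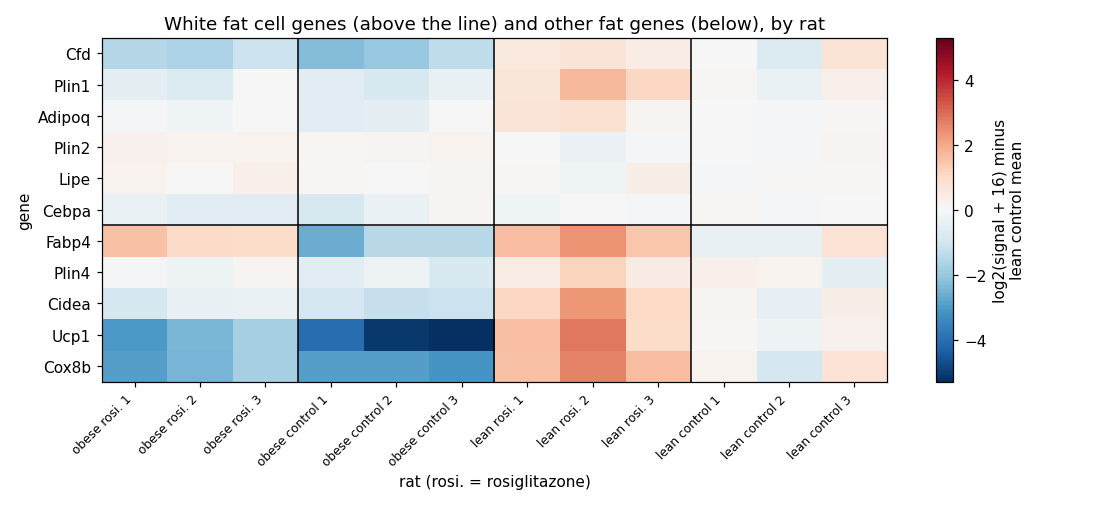
Signal of 6 members (above the line) and 5 other fat genes (below it) in each of the 12 rats, as log2(signal + 16) minus the lean control mean, with obese rosiglitazone rats at the left and lean control rats at the right; the 5 lower genes were chosen after their values were seen. Red is above and blue below the lean control mean: Fabp4 is red in all 6 rosiglitazone rats, Ucp1 and Cox8b are blue in all 6 obese rats, and Lipe stays near white.

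The summed signal of red blood cell markers did not overlap between the body types on rosiglitazone and overlapped on control diet. It was 9145 to 15653 in obese and 2842 to 6753 in lean rosiglitazone rats, and 7539 to 10220.5 in obese and 5902 to 11181 in lean control rats. Adrenal cortex markers were at background for 3 of 4 genes and skeletal muscle markers for 4 of 4. The part of these cell types in the members' differences was not tested.

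Receptors and partners of the adipokines made a list of 8 genes, of which 7 were tested and 1 was called on control diet (4.74% of all probe sets) and over both diets (14.3%). Cdh13, T-cadherin, which binds adiponectin, was 136.8 ± 33.3 in obese and 193 ± 20.6 in lean rosiglitazone rats, and 109 ± 17.3 in obese and 269 ± 35.7 in lean control rats (SD, n = 3 each). It fell in obese rats on control diet (limma, fitted log2 change -1.19, SE 0.21, adjusted p = 0.00649), where all 3 obese arrays were at background, so the fold is at least 2.03. The call did not hold among arrays of higher spike-in signal (adjusted p = 0.282). Over both diets, with 4 of 6 obese arrays at background, the fitted change was -0.83 (SE 0.15, adjusted p = 0.00243). The adiponectin receptors Adipor1 and Adipor2 had changes of -0.15 and -0.13 over both diets (adjusted p = 0.108 and 0.566), and the leptin receptor Lepr had 0.21 (adjusted p = 0.501). C3, the complement protein whose convertase adipsin completes, had 0.00 (adjusted p = 0.993).

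Regulators of fat cell genes made a list of 10, and 9 were tested. Only Klf15, a factor of fat cells and of glucose metabolism, was called among these 9, lower in obese rats over both diets (limma, log2 change -0.34, SE 0.10, adjusted p = 0.0318); 12 of 21 alternatives kept that call. This is 1 of 9, where 14.3% of all probe sets were called. Pparg, the receptor that rosiglitazone binds, was 247.3 ± 18 in obese rosiglitazone, 202.7 ± 47.7 in obese control, 248.3 ± 61.8 in lean rosiglitazone and 189.3 ± 29.9 in lean control rats (SD, n = 3 each). Its drug change over both body types was 0.32 (SE 0.15, adjusted p = 0.993).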

How the data were processed

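RNA from 12 whole rat kidneys was labelled with biotin after Trizol extraction, per the labels' protocols. The deposited values are linear signal intensity values made by the authors with MAS5, per the submitters' processing notes, with no version given there. The trimmed mean of the arrays lay between 500.12 and 500.15, so they were used without further scaling. Of 31099 probe sets, 57 were controls. Of the 31042 others, 20826 had 1 gene symbol, 436 several and 9780 none, and 20758 gene IDs matched the GRCr8 gene table, with 0 symbols updated. An offset of 16 was added before taking log2, and a filter at the 40th percentile of mean log2 (7.32) kept 18625 probe sets. All arrays entered 1 limma model with 4 group means and 8 residual degrees of freedom (limma 3.58.1, statmod 1.5.0, R 4.3.3; eBayes with trend and robust), with Benjamini-Hochberg adjustment within each of 7 comparisons. Nothing says that same-numbered rats were paired. The procedure was tested on simulated data.

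The members, gene lists and tests were chosen with earlier results of these data known. All members were named, led by the probe set of highest mean, with up to 4 called genes per list of smallest p, and the 3 nearest genes in pattern. Alternatives were offsets of 1 and 64, no filter, other scalings, plain eBayes, a replicate block, the spike-in class and leaving out each array. The same settings were applied to called genes of the lists after seeing the data. The other fat genes in the plot of signals by rat were chosen after their values were seen. Retn was not analysed here.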

Additional observations from a re-analysis of the deposited data

How the results depend on the processing

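Of 1597 values of the 11 tested member probe sets recomputed under the alternatives, 19 calls were lost, 7 were gained and 0 were reversed, and 73 values that no fit called changed sign. The number of called probe sets moved to 0 on control diet within the higher spike-in class and to 2 over both diets within the lower class. With 1 array left out it was 1 on control diet, 2 to 3 on rosiglitazone, 3 to 4 over both diets and 0 in the other 4 comparisons. Cfd over both diets and on rosiglitazone, and Plin1 1392583_at in the same comparisons, were called in all 21 alternatives, Cfd on control diet in 21 of 22 and Adipoq over both diets in 19 of 21. Plin2 over both diets was lost with no filter (adjusted p = 0.0671), quantile normalization (0.0603), median centring (0.112), plain eBayes (0.0791), the spike-in class in the model (0.179) and in the lower class alone (0.320). It was also lost without lean control 1 (0.0872) or 2 (0.0996), lean rosiglitazone 2 (0.0962) or 3 (0.0575), obese control 1 (0.0652), 2 (0.0882) or 3 (0.100), and obese rosiglitazone 1 (0.0742), 2 (0.0809) or 3 (0.0759). Adipoq on rosiglitazone was gained with an offset of 64 (0.0481) and with quantile normalization (0.0387). Lipe 1387132_at, below the filter and not counted above, was called over both diets without lean control 2 (0.0165), where it passed the filter. Lean control 2 held its lowest lean value, so this call is no separate support. The cause was not tested.

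Over all tested probe sets, the 882 calls on control diet ranged from 327 to 1010 with 1 array left out and from 56 to 995 otherwise, the 932 on rosiglitazone from 469 to 1039 and from 493 to 1002, and the 2665 over both diets from 1921 to 2703 and from 1142 to 2697. The drug calls ranged from 0 to 24 in lean rats (1 in the reported fit), 0 to 34 in obese rats (13) and 3 to 20 over the body types combined (11), and those of the difference in drug effect from 0 to 6 (0). Below 500 calls on control diet were left without lean control 1 (389), obese control 2 (327) or obese control 3 (337). Within the higher class no obese rosiglitazone array was present, so 5 comparisons could not be fitted there. Median centring and the other scalings turned no called member.

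With the replicate number as a block, the members called were 1, 2, 0, 0, 4, 0 and 0 in the 7 comparisons, as without it. Same-numbered arrays deviated together with correlations between -0.13 and 0.18, not all over 0.1, and the numbers were not taken as pairs. Between lean rosiglitazone and lean control rats they were 0.1 to 0.18, above those of other-numbered arrays (-0.17 to 0.04). In both lean groups arrays 1 and 2 were in the higher spike-in class and array 3 in the lower. Whether same-numbered lean arrays shared a batch was not tested. Among the other fat cell and lipid droplet genes, the weakest calls were those of Mgll and Hilpda on control diet, kept in 6 and 9 of 22 alternatives, and Lpl on rosiglitazone and G0s2 over both diets, kept in 9 of 21 each. Fabp4 on control diet was lost without obese control 1 (0.0549). Dim probe sets, such as those of Cfd in obese rats, Lep and Lipe 1387132_at, lie near background, where a change depends on the offset: that of Cfd on control diet was -2.09 with an offset of 1 and -1.44 with 64. Within the lower spike-in class it was -2.39.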
